A study of Homo sapiens with 33 samples.

Results

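The replication-dependent histone genes of the large cluster on chromosome 6 were followed across all peak lists of a CUT&Tag study of MITF, the transcription factor that governs melanocyte identity. All protein-coding genes of the RefSeq table (GRCh38.p14, the hg38 build) that lie on chromosome 6 between 26 and 28.2 Mb and whose symbol starts with H1-, H2AC, H2BC, H3C or H4C were taken, which gave 53 genes of 19974 protein-coding genes on chromosomes 1 to 22 and X. The symbol and the position alone chose them. They comprised 6 linker histone genes (H1), 11 H2A genes, 14 H2B genes, 10 H3 genes and 12 H4 genes, and 32 of them lay before 27 Mb and 21 after it.

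The cells were UACC-257, an established human melanoma line, and every group carried the genotype given as MITF knockdown and was treated with doxycycline. HA-tagged MITF was profiled with an anti-HA antibody that brings a transposase to the DNA around its target, and the groups were wild-type MITF (WT), 9 variants named rep217A, rep263A, K243A, G244E, Y253A, E260A, Q261A, A264C and N278D, and a control given as Empty. Each of the 11 groups had 3 replicates, and peaks were called in each of the 33 libraries alone. Replicates 2 and 3 of rep217A held the same peaks and values, as did those of rep263A. Each such pair counts once here, so that these groups have n = 2 and the series 31 distinct libraries. Whether replicates were separate cultures is not stated in the labels, so all p-values measure only the spread between these samples. The sources used here do not say how the HA-tagged protein was delivered or how much of it each group made, and peak lists do not show the level of MITF itself.

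Replication-dependent histone genes are short and intronless, are transcribed in S phase when new DNA must be packed, and end in a stem-loop bound by SLBP in place of a poly(A) tail. H2A, H2B, H3 and H4 build the nucleosome core and H1 binds the linker DNA between nucleosomes. Many H2A and H2B genes stand head to head and share 1 promoter, and the cluster is gathered in the histone locus body, where the coactivator NPAT is phosphorylated by cyclin E and CDK2.

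The sequences of the loci on which the results turn are shown first, all read from the RefSeq promoter table of GRCh38.p14. For divergent pairs the bases between the starts of both genes are given on the plus strand, and for single genes the 250 bases before the start on the strand of the gene. Capitals mark, on either strand, the CCAAT box by the letters CCAAT, the TATA box by TATAAA, and the octamer of H2B promoters by ATTTGCAT. Matches that overlap run together. CACGTG and CATGTG, the core letters of the E-boxes that MITF binds, would also be in capitals, but neither occurs in these stretches. H2BC11/H2AC11 (chr6:27132796-27133042) is shown as the core histone locus of highest rank, H2BC4/H2AC6 (chr6:26123927-26124171) and the linker gene H1-2 (chr6:26056471-26056720, minus strand) for the widest differences between WT and Empty, H1-4 (chr6:26156079-26156328, plus strand) as the H1 gene of highest rank in WT, H2AC15/H2BC15 (chr6:27838376-27838568) and H4C4 (chr6:26189113-26189362, minus strand) for differences in variants, and H2AC14/H2BC14 (chr6:27814778-27815021) as a pair with weak peaks.
H2BC11/H2AC11: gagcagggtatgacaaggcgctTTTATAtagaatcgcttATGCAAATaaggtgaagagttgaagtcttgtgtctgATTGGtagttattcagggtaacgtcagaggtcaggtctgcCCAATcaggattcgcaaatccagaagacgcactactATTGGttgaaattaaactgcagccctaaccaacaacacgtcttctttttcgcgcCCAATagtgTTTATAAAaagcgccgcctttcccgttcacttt
H2BC4/H2AC6: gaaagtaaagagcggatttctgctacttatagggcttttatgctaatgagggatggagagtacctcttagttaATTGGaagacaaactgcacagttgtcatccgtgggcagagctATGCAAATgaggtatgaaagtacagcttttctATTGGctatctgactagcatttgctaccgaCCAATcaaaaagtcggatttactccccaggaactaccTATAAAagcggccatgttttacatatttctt
H2AC15/H2BC15: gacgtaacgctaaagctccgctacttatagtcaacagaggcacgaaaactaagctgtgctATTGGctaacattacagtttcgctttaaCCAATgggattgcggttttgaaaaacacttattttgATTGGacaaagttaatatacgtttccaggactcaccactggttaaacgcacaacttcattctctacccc
H2AC14/H2BC14: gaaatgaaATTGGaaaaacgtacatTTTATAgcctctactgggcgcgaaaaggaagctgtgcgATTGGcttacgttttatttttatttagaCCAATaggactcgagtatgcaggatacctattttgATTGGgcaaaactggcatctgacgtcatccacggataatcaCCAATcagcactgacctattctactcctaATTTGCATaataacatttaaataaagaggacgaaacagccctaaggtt
H1-2: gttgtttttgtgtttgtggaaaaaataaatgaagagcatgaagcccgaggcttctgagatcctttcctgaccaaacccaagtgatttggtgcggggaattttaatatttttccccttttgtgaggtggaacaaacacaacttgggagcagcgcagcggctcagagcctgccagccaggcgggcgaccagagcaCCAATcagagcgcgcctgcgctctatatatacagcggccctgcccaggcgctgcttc
H1-4: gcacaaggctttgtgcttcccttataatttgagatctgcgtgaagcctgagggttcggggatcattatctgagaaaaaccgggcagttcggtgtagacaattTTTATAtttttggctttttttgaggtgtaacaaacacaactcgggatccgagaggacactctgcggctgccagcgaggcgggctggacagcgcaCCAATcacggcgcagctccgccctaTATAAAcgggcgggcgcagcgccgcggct
H4C4: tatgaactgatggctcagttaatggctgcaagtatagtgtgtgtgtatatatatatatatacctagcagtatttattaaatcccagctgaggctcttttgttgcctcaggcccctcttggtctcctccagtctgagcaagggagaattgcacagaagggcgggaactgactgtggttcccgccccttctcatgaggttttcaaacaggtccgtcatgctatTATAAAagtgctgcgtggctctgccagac

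A promoter entry of 300 bases, from 250 before to 50 after the start, was matched for 48 of the 53 genes. Letters were searched on both strands and compared with all 35116 promoters of the table. CCAAT was held by 41 of the 48 (85.4%) against 34.6% of all promoters, and TATAAA by 31 (64.6%) against 11.5%. ATTTGCAT was held by 20 (41.7%) against 1.77%, and 8 of 10 H2A and 11 of 14 H2B promoters had it, against 1 of 8 H3 promoters and 0 of the H1 and H4 promoters. TTTCGCGC, an E2F-type sequence, was in 11 (22.9%) against 0.515%, and the related TTTGGCGC in 0 against 0.652%. CACGTG was in 0 of the 48 against 7.26% of all promoters and CATGTG in 0 against 11.1%. The longer forms TCACGTG and TCATGTG, which contain these, were therefore also in 0, against 3.71% and 2.92%. Both genes of a divergent pair share most of their windows, so the 48 promoters are fewer than 48 separate sequences. A match is a description of letters and not a site, and no match says only that the letters are not in this window.

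Each protein-coding gene took, in each library, the highest −log10 q among peaks whose summit lay within 1000 bp of either end of the gene, and genes were ranked on that value within the library. Rank 1 is the strongest gene, and genes without a peak share the last rank. Ranks were used because the libraries differed in depth. The background pileup, the usual number of reads over a base as recovered from the deposited values, was 1.08 to 1.20 in WT, 0.697 to 1.49 in A264C, E260A, N278D, Q261A and Y253A, 0.427 to 0.487 in rep263A, 0.276 to 0.348 in rep217A, 0.132 to 0.244 in K243A, 0.108 to 0.151 in G244E and at most 0.03 in Empty. The lists held 81488 to 300000 peaks. Of 8 melanocyte marker genes, 7 had a peak in every WT library and 4 or 5 in each Empty library, which describes occupancy of these genes and not their expression. As means, 87.5% of the markers had a peak in WT against 71.8% of all protein-coding genes. In Empty it was 54.2% against 50.8%.

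In WT the histone genes were mostly at peaks, but at ones of middling rank. A peak was found in all 3 WT libraries for 40 of the 53 genes, in some of them for 5 and in none for 8. Averaged over the WT libraries 78.6% of the histone genes had a peak, near the 71.8% of all protein-coding genes. The genes with no WT peak were H1-1, H2BC3, H3C3, H1-6 (the linker histone of the testis), H4C4, H4C7, H4C13 and H3C12, and 4 of these (H1-1, H4C7, H4C13 and H3C12) had no peak in any library. At the other end, 25 genes had a peak in all 31 libraries. H1-6 had a single peak, in 1 Empty library with a −log10 q of 0.102. Histone genes of 1 family are near-identical in sequence, and the sources used here do not say how reads that fit several copies were handled. The part of such reads in the genes without a peak was not tested.

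Neighbouring genes often shared their peak, so genes are not separate measurements. The 53 genes fell into 39 loci when genes that took the same summit in a WT library were joined, and 28 genes lay in 14 loci with more than 1 gene. H1-4 and H2BC5 stood apart by this rule, yet took the same peak in Empty replicates 1 and 2. Most of the genes are short: 48 spanned 386 to 797 bases in the annotation, with a median of 487 over all 53. The 5 that exceed 2000 bases, H2BC5, H2BC4, H2BC12, H3C6 and H3C4, carried annotated spans of 13229, 10757, 8566, 3296 and 2510 bases, and for these the far end lies away from the histone promoter.

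**Figure D1:**
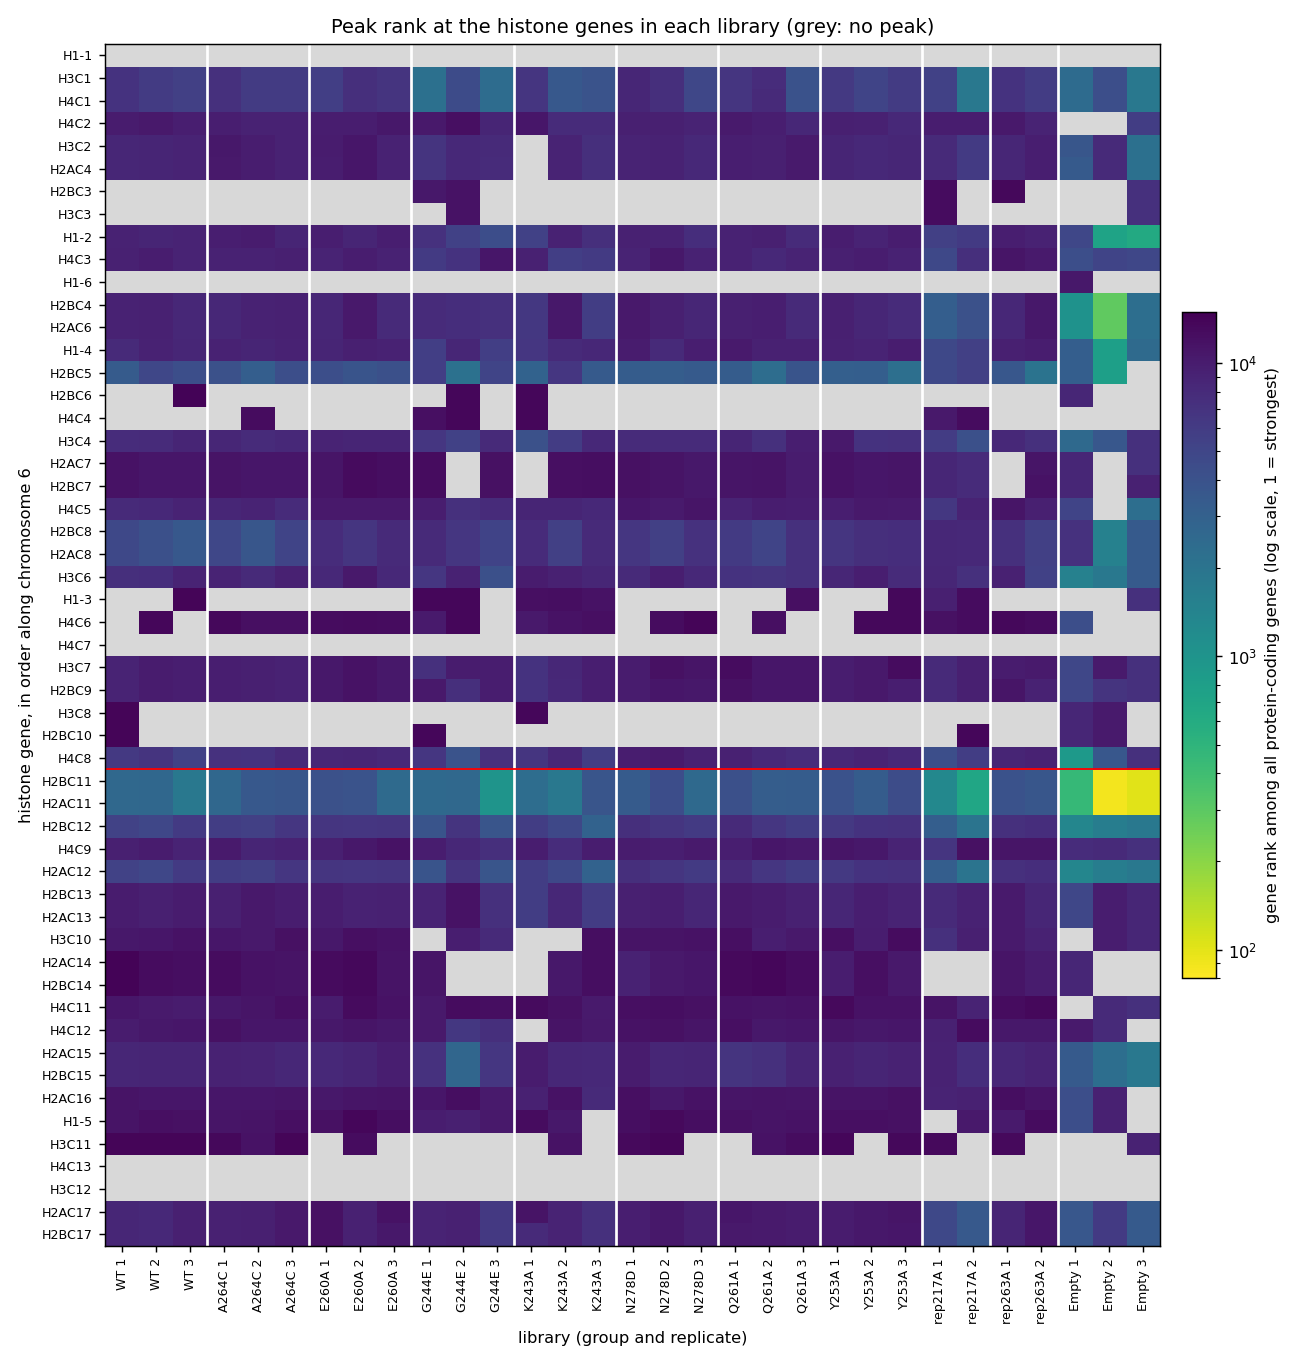
Gene rank (colour, log scale, 1 = strongest) of the 53 histone genes (vertical axis, in order along chromosome 6, red line at the gap at 27 Mb) in the 31 distinct libraries (horizontal axis, by group); grey marks a gene with no peak. H2BC11 and H2AC11 reach rank 88.5 in Empty replicate 2, the strongest value in the plot, and 4 genes are grey throughout.

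The median rank of the 53 genes was 9697 ± 256 (SD, n = 3) in WT, close to the middle of all protein-coding genes, whose median rank was 9988 ± 0.382. It was 9772.5 ± 68.8 in A264C, 10236 ± 265 in Y253A, 10256 ± 56.6 (n = 2) in rep263A, 10285 ± 271 in N278D, 10351 ± 217 in Q261A and 10744 ± 231 in E260A. The shallower groups had lower numbers, that is stronger ranks: 9209 ± 918 in K243A, 9035 ± 937 in G244E and 8662 ± 392 (n = 2) in rep217A. Empty had 6755.5 ± 1612 (SD, n = 3), with single libraries at 4940, 8018.5 and 7308. In that order, WT, A264C, K243A and G244E did not differ beyond their spread, and neither did Y253A, rep263A, N278D and Q261A. Empty, G244E, K243A and rep217A, the 4 groups with the strongest median ranks, were also the 4 shallowest, and the part of depth in these medians was not tested. The median rank of all protein-coding genes in Empty was 11443 ± 2787 (SD, n = 3). On average 71.1% of the histone genes and 50.8% of all protein-coding genes had a peak in Empty.

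A second measure was the share of genes at the 10000 strongest peaks of each library. Of the 53 genes, 5.66% ± 1.89 (SD, n = 3) stood at a strongest peak in WT, where 19.2% ± 0.114 of all protein-coding genes did. In Empty the share was 30.2% ± 4.99 of the histone genes against 16.8% ± 1.71 of all genes. G244E had 13.8% ± 2.18, rep217A 11.3% in both libraries, K243A 9.43% ± 3.27, A264C 5.66% ± 3.27, Q261A 2.52% ± 2.88, N278D 1.89% ± 1.89, E260A 1.26% ± 2.18, Y253A 1.26% ± 1.09 and rep263A 0.943% ± 1.33 (n = 2). Empty was the only one of the 11 groups in which the mean share of the histone genes lay above that of all genes. Over the whole interval, 13 to 28 of the 10000 strongest peaks lay there in Empty libraries and 5 to 8 in WT libraries. G244E had 5, 12 and 13, rep217A 11 and 13, K243A 9, 7 and 6, and the other variants 2 to 8.

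**Figure D2:**
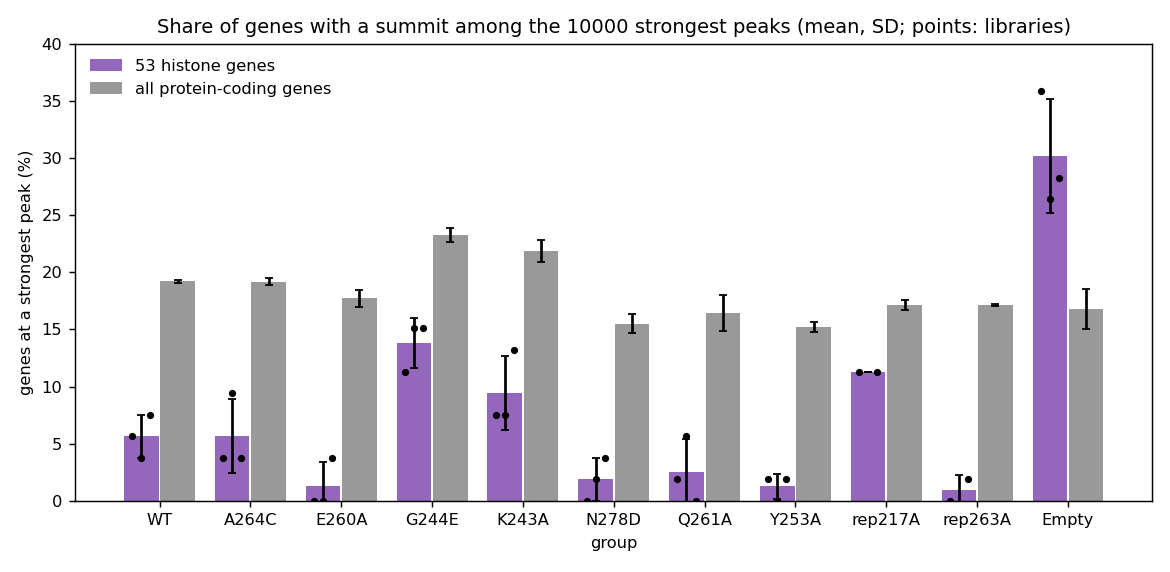
Share of genes (vertical axis, %) with a summit among the 10000 strongest peaks, by group (horizontal axis); purple bars are the 53 histone genes and grey bars all protein-coding genes, as means with SD over the libraries, and points are single libraries. The histone bar is 30.2% in Empty and 5.66% in WT, while the grey bars stay between 15.2% and 23.3%.

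By their strength in WT, H2AC11 and H2BC11 led the H2A and H2B genes. Their shared peak had a −log10 q of 138, 126 and 163 in the WT libraries and ranked 2565.5, 2600.5 and 1852.5. H3C1, an H3 gene, and H4C1, an H4 gene, shared a peak that ranked 7014.5, 5984.5 and 5543.5, and were the highest of their families. H1-4, a linker histone of most body cells, ranked 7995, 9077 and 8504 and led the H1 genes. Of the weakest genes of each family with any WT peak, all but H2AC14 had it in 1 WT library. H1-3 had a peak in WT replicate 3 only, with a −log10 q of 0.994, and H2BC6 in the same library with 0.392. H3C8 had one in WT replicate 1 with 1.67, and H4C6 in WT replicate 2 with 1.15. H4C6 was nevertheless found in 22 of the 31 libraries, and H1-3 in 11. H2AC14, which shares its peak with H2BC14, had peaks in all WT libraries of −log10 q 1.26, 3.03 and 3.69.

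The comparison of WT with Empty asks which peaks follow the tagged protein. Ranks were turned into normal scores, on which a positive difference means a place nearer to rank 1, and all 31 libraries were fitted with limma over 16937 genes. A gene was tested when it had a peak in at least 3 libraries, which 48 of the 53 histone genes met and 5 did not. With a Benjamini-Hochberg adjusted p under 0.05, 0 of the 48 ranked nearer the top in WT, while 18.7% of all genes tested did. By contrast, 25 of the 48 (52.1%) ranked further from the top in WT than in Empty, where 13.4% of all genes tested did. Of these 25, 5 had peaks in few libraries and rest largely on the shared last rank, as described below. An unadjusted p under 0.05 was reached by 29 of the 48, all further from the top in WT. The share of all genes tested at that unadjusted level was not computed, here or in the comparisons below. Differences were negative for 44 of the 48, with a median of -0.55 against -0.00046 over all genes tested. H4C2, H2BC5, H3C10 and H4C12 were the 4 with positive values, 0.29, 0.10, 0.04 and 0.06, and none of these passed the test.

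The rank, not the raw strength, was lower in WT. In each of the 27 genes with a peak in all 6 WT and Empty libraries, the lowest WT −log10 q lay above the highest Empty value. The fold enrichment was likewise above every Empty value in 25 of the 27. The mean background pileup of WT was at least 38.5 times that of Empty. Neither count of genes above every Empty value was made over all genes, so they show nothing particular to the histone genes. Of these 27 genes, 20 were called, from 13 loci. The other 5 calls were H2BC3, H3C3, H2BC6, H3C8 and H2BC10, which had peaks in few libraries, so that their differences rest largely on the shared last rank of genes without a peak. In loci, 17 of the 34 tested held a called gene. Called genes were 2 of 4 tested H1 genes, 6 of 11 H2A, 9 of 14 H2B, 6 of 9 H3 and 2 of 10 H4, and 17 of 29 before 27 Mb and 8 of 19 after it.

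The widest difference was at the pair H2AC6 and H2BC4, whose shared stretch is printed above. It ranked 9167.5, 9191.5 and 8339.5 in WT and 1036.5, 285.5 and 2279 in Empty, and the groups did not overlap. The difference was -1.54 (SE 0.181, limma adjusted p = 2.1e-07). The recovered pileup at its summit was 54, 51 and 62 in WT and 9, 11 and 5 in Empty, so few reads carried each Empty value.

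H1-2, a linker histone of most body cells, followed. It ranked 9070.5, 8681 and 8862 in WT and 4940, 718 and 621.5 in Empty, without overlap. The difference was -1.31 (SE 0.196, limma adjusted p = 8.6e-06). Its pileup was 38, 40 and 43 in WT and 4, 7 and 6 in Empty. The SD of its ranks was 195 in WT and 2466 in Empty. The fit takes a common spread per gene over all 11 groups. The p-values of WT against Empty therefore do not measure the spread within Empty alone. H1-4 ranked 3166, 777 and 2472.5 in Empty, all nearer the top than in WT, with a difference of -1.12 (SE 0.153, limma adjusted p = 2.1e-06).

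H2AC11 and H2BC11, already the strongest histone genes in WT, ranked 450.5, 88.5 and 101 in Empty. The ranks of replicates 2 and 3 were the strongest of the 53 genes over all 31 libraries. The difference was -1.20 (SE 0.168, limma adjusted p = 2.9e-06). The −log10 q was 6.61, 9.16 and 8.03 in Empty, on 11, 13 and 11 reads, and the fold enrichment 7.29, 8.92 and 8.45, against 16.9, 15.1 and 17.6 in WT. H2AC15 and H2BC15 ranked 8624.5, 8797.5 and 8758.5 in WT and 3422, 2266.5 and 1862.5 in Empty, a difference of -1.001 (SE 0.154). H3C1 and H4C1 ranked 2413.5, 4233.5 and 1862.5 in Empty, a difference of -0.60 (SE 0.190 for H3C1, limma adjusted p = 0.017). All of these loci lay nearer the top in every Empty library than in any WT library. They had passed the test on the same libraries, so this adds no support.

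Several other loci were chosen after their values were seen. H3C6, an H3 gene, differed by -0.99 and the pair H2AC12 and H2BC12 by -0.80. H2AC17 and H2BC17 differed by -0.62, and H4C3, an H4 gene, by -0.63. The 7 genes with peaks in all 6 libraries that were not called were H3C7, H4C8, H4C9 and the pairs H2AC8 with H2BC8 and H2AC13 with H2BC13. H4C8 ranked 6325, 6788 and 5496 in WT and 896, 3613.5 and 7308 in Empty, so its groups overlapped.

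**Figure D3:**
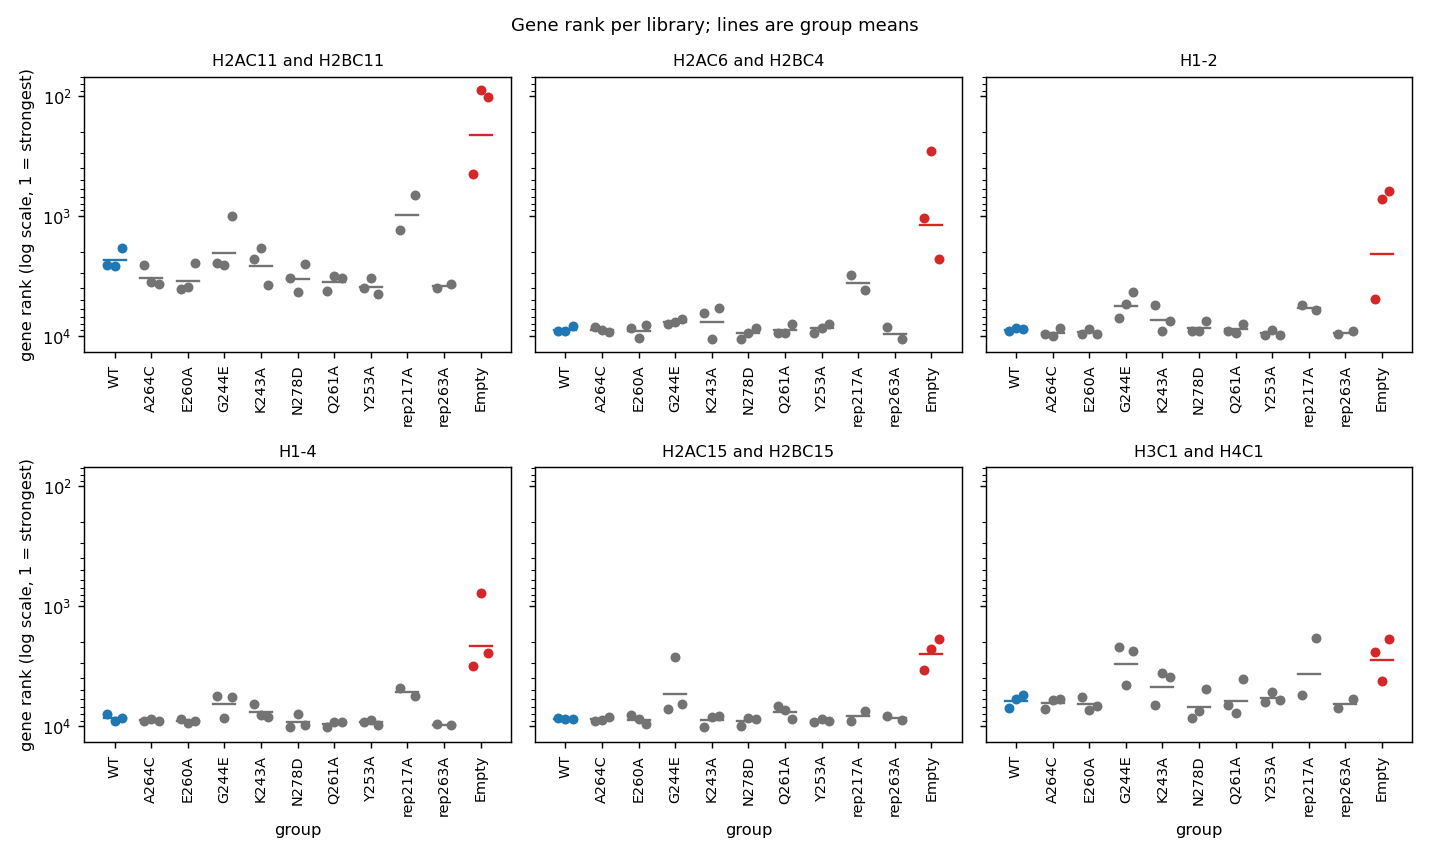
Gene rank (vertical axis, log scale, rank 1 at the top) at 6 histone loci in each library, by group (horizontal axis); points are libraries, lines are group means, WT is blue and Empty red. The Empty points of H2AC11 with H2BC11 run from 450.5 to 88.5, above every WT point, and the rep217A points of H2AC6 with H2BC4 stand at 3128 and 4133.5.

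With peaks recomputed at the depth limit of Empty, 21 of 43 tested genes ranked further from the top in WT and 0 nearer, and 18 of the 21 were among the 25. The shares of all genes tested under that setting were 14.3% further and 19.98% nearer. With the same number of ranked genes in every library, a setting added after the data were seen, the counts were 21 of 36 and 0, against 13.7% and 21.98% of all genes tested. The direction did not hold when only peaks with a −log10 q of at least 5 were used: of 39 genes 8 then ranked nearer the top in WT and 4 further, against 47.4% and 10.8% of all genes tested. Only 563 to 1310 peaks of an Empty library reach that value, and 2 to 4 of the 53 genes there against 36 or 37 in WT. Under that filter the difference turned positive at H1-2 (0.18), H1-4 (0.22), H2AC15 with H2BC15 (0.20) and H3C1 with H4C1 (0.54), and the last pair passed the test as nearer the top in WT (limma adjusted p = 0.00899 for H3C1). H2AC6 and H2BC4 differed by -0.57 and no longer passed (limma adjusted p = 0.195). H2AC11 and H2BC11 kept -1.20 and passed.

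At divergent pairs the summits were close to the bases between the starts in some loci and not in others. At H2BC4/H2AC6, where 245 bases separate the starts, the WT summits lay at -34, -33 and -14 bp from the midpoint and the Empty summits at -42, -41 and -17. At H2BC11/H2AC11, with 247 bases, they lay at -94, -66 and -31 in WT and -111, -94 and -47 in Empty. Both loci thus had their peak inside the shared promoter in all 6 libraries. At H2AC15/H2BC15, with 193 bases, WT summits lay at -201, -194 and -11 and Empty summits at -537, -35 and 76. The 3 WT summits of H2BC8/H2AC8 were at 468, 484 and 484 bp, inside the H2AC8 gene, and those of H2AC14/H2BC14 at -648, -624 and -612, beyond the end of H2AC14. A gene that takes its value from such a summit is not measured at its promoter.

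**Figure D4:**
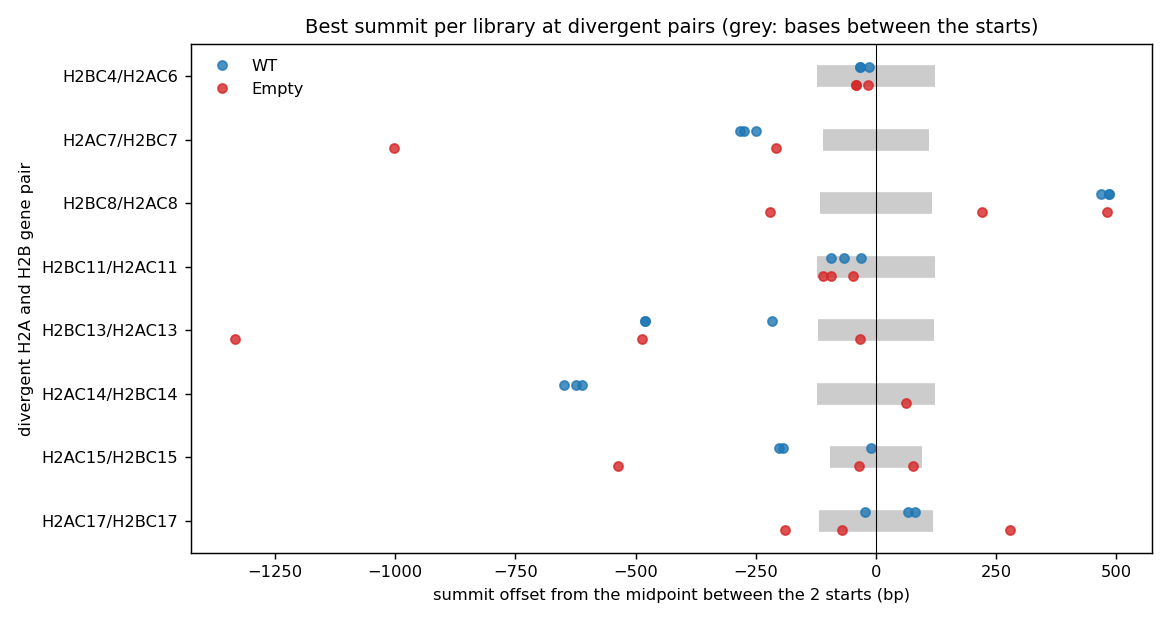
Position of the best summit in each WT (blue) and Empty (red) library, in bp from the midpoint between the starts of 8 divergent H2A and H2B pairs (vertical axis); grey bars are the bases between the starts. The summits of H2BC4/H2AC6 and H2BC11/H2AC11 lie within the bar in all 6 libraries, while the WT summits of H2AC14/H2BC14 lie at -648 to -612.

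The comparisons of variants with WT share the WT libraries and are therefore not independent of each other or of the comparison with Empty. In rep217A, 7 of 48 histone genes (14.6%) ranked nearer the top than in WT, where 3.51% of all genes tested did, and 0 further, where 5.25% did. An unadjusted p under 0.05 was reached by 19 of the 48, 15 of them nearer the top and 4 further from it. Differences were positive for 38 of 48, with a median of 0.22 against 0.02 over all genes tested. The 7 genes came from 4 loci. H2AC6 and H2BC4 ranked 3128 and 4133.5 in rep217A, against 8339.5 to 9191.5 in WT, a difference of 0.78 (SE 0.203, limma adjusted p = 0.013). H4C4, an H4 gene with no WT peak, had weak peaks in both rep217A libraries, with a −log10 q of 2.55 and 1.17 on 4 and 3 reads, and differed by 0.88 (SE 0.189, limma adjusted p = 0.0025). The other loci, chosen after their values were seen, were H2AC17 with H2BC17 (0.65 for both) and H2AC12 with H2BC12 (0.54). H2AC12 ranked 3122 and 2018 in rep217A and 5330.5, 4902.5 and 6133.5 in WT. Groups did not overlap at these 4 loci, but the test had picked them on the same libraries, so this adds no support. At H4C4 it sets peaks of 4 and 3 reads against the shared last rank. Without rep217A replicate 2 the count was 3, in a fit in which the 1 library left is assumed to vary like the other groups. With Empty left out, the other libraries were also brought to the depth of the shallowest of them. There 14 of 44 ranked nearer and 2 further, where 11.02% and 12.4% of all genes tested did. With a minimum −log10 q of 5, 7 of 39 ranked nearer and 5 further, where 7.58% and 19.8% of all genes tested did, and 4 of the 7 calls were among these 12; H2AC6 and H2BC4 were not (limma adjusted p = 0.174).

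In G244E, 3 of 48 (6.25%) ranked nearer the top than in WT, where 3.04% of all genes tested did, and 0 further, where 5.14% did. An unadjusted p under 0.05 was reached by 7 of the 48, all nearer the top. The 3 called were H2AC15 and H2BC15, with 0.48 (SE 0.154, limma adjusted p = 0.049975), and H4C4, with 0.54 (SE 0.169, limma adjusted p = 0.0469). H2AC15 ranked 7181.5, 2668.5 and 6505 in G244E, all nearer the top than in WT, and replicate 2 stood apart. H4C4 had peaks in G244E replicates 1 and 2, with a −log10 q of 1.12 and 0.189, and none in replicate 3. The lists of these 3 replicates held 300000, 300000 and 100041 peaks. All 3 calls were just under the threshold, and leaving out any 1 of the 3 WT replicates left 0 calls. At the depth of the shallowest library 7 of 44 ranked nearer and 2 further, where 10.2% and 11.6% of all genes tested did. With a minimum −log10 q of 5 the direction turned: 2 of 39 ranked nearer and 8 further, where 7.82% and 23.2% of all genes tested did, and 0 of the 3 calls were kept.

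None of the 48 passed the test in the other 7 variants, in either direction, at the deposited depth and with all peaks. In A264C 0 of 48 had an unadjusted p under 0.05, and the shares of all genes tested that were called were 0% in each direction. In E260A these shares were 1.29% nearer and 1.33% further and 2 of 48 had an unadjusted p under 0.05. In K243A they were 0.23% and 0.821%, with 7 of 48. In N278D they were 0.903% and 0.951%, with 1 of 48, and in Q261A 0.118% and 0.0945%, with 0. In Y253A they were 0.744% and 0.543%, with 2 of 48, and in rep263A 0% and 0.0236%, with 0. In E260A 38 of 48 differences were negative, with a median of -0.12, the lowest of the 9 variants, against 0.01 over all genes tested. Counts of 0 among 48 genes are near these shares of all genes tested. The shares are at the adjusted threshold and are no background for the counts at an unadjusted p. Calls appeared under other settings. With the same number of ranked genes in every library, N278D had 1. At the depth of the shallowest library, K243A had 4 of 44 nearer and 3 further (4.13% and 5.48% of all genes tested), N278D 2 and 1 (4.35% and 4.405%), and E260A and Y253A 0 and 2 each (5.90% and 5.46%, 3.72% and 3.57%). With a minimum −log10 q of 5, K243A had 0 of 39 nearer and 6 further (3.42% and 13.8%) and E260A 0 and 4 (6.03% and 4.68%). Under the same filter Y253A had 2 and 2 (4.51% and 3.04%), N278D 2 and 1 (4.87% and 3.81%) and rep263A 0 and 3 (0.905% and 2.50%).

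**Figure D5:**
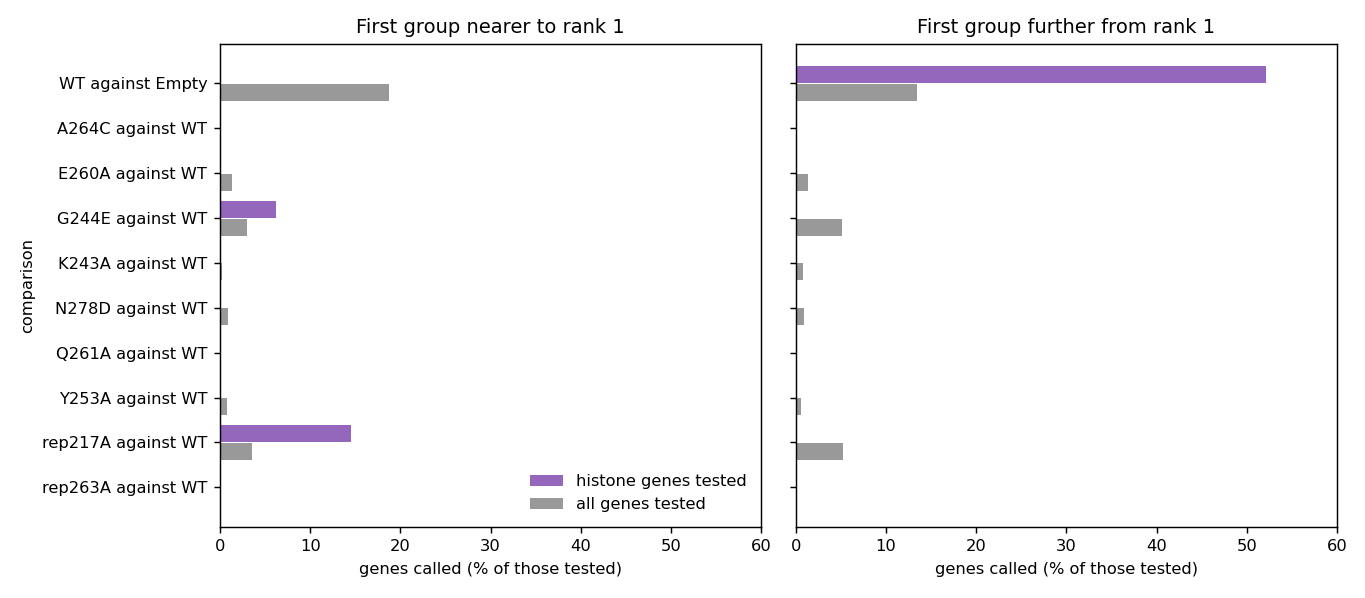
Share of the 48 tested histone genes (purple) and of all 16937 genes tested (grey) called at an adjusted p under 0.05 (horizontal axis, %), by comparison (vertical axis), with the first group nearer to rank 1 on the left and further from it on the right. The purple bar reaches 52.1% for WT against Empty on the right, where the grey bar is 13.4%. That purple bar includes 5 genes whose differences rest largely on the shared last rank.

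A pair chosen after its values were seen ran the other way. H2AC8 and H2BC8 ranked 4777.5, 4160.5 and 3542.5 in WT and 4932.5, 3707.5 and 5107 in A264C, at a peak inside H2AC8. In rep217A they ranked 8384.5 and 8284, in E260A 7790.5, 6717.5 and 8012.5, and in Y253A 6699.5, 7418.5 and 7560.5. They ranked 5594.5 and 7333.5 in rep263A, and lay between 5125.5 and 8108.5 in G244E, K243A, N278D and Q261A. Ranks were thus further from the top than in any WT library in all libraries of 8 of the 9 variants, A264C being the exception. The differences from WT were -0.61 in rep217A, -0.50 in E260A and -0.46 in Y253A, with limma adjusted p-values of 0.056, 0.17 and 0.31. They were -0.45 in K243A, -0.37 in G244E, -0.35 in N278D, -0.35 in rep263A and -0.32 in Q261A, with limma adjusted p-values of 0.248, 0.250, 0.516, 0.881 and 0.945, so none of the 8 passed. H2AC8 was called in rep217A under 3 other settings. The difference was -0.63 at the depth of the shallowest library (limma adjusted p = 0.00068), -0.61 with a minimum −log10 q of 5 (limma adjusted p = 0.00093) and -0.62 with a replicate block (limma adjusted p = 0.036). The SE was 0.201 at the deposited depth with all peaks, 0.133 at the lower depth and 0.129 with the q filter. The difference hardly moved, so the lower p-values of the lower depth and the filter go with a smaller SE. Scaling adds no chance peaks of a shallow library, so its p-value is not that of libraries sequenced so shallowly. Over all alternatives the limma adjusted p of H2AC8 in rep217A ran from 0.00068 to 0.32, the latter when genes were ranked by fold, with -0.34.

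Other gene lists were measured in the same way. Of 16 tested genes of the interval that are not histone genes, 3 ranked nearer the top in WT than in Empty and 1 further, with a median difference of 0.13. ZNF322, a zinc finger gene between the histone genes, was among the 3, with a difference of 1.42. Of 12 tested histone genes elsewhere in the genome, 2 ranked nearer and 5 further, with a median of -0.37. H2AC25 and H2BC26, a pair on another chromosome, were the 2, with 0.91 each. Of 11 genes of replacement histones, which are made outside S phase, 3 ranked nearer and 4 further, and H2AZ1 differed by 1.64.

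Genes of factors that act on histone gene expression lay on the other side. Of 20, 11 ranked nearer the top in WT than in Empty and 1 further, with a median of 0.56. HINFP, an activator of H4 genes, ranked 17, 34 and 22 in WT and 55.5, 1457 and 476 in Empty, a difference of 0.98 (SE 0.191). NPAT, the coactivator of the histone locus body, ranked 59.5, 53.5 and 54.5 in WT and 367, 567 and 580.5 in Empty, a difference of 0.81 (SE 0.126). In rep217A, 3 of these 20 ranked further from the top than in WT and 0 nearer, where 5.25% and 3.51% of all genes tested did. HINFP stood at 1006.5 and 479 there. Of 12 histone chaperone genes, 2 ranked nearer and 1 further in WT than in Empty, and of 8 melanocyte markers 3 and 0, among them SLC45A2 with 1.37 and TYR with 0.82. Differences were positive for 5 of the 8 markers and negative for 3, with a median of 0.34. In the comparison of WT with Empty the lists are read against 18.7% and 13.4% of all genes tested, and differences between lists were not tested.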

How the data were processed

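The 33 CUT&Tag libraries of HA-tagged MITF in UACC-257 cells came as 1 narrowPeak list each, which the authors deposited, called per library and not on pooled reads. Bowtie2 2.3.4.3, MACS2 (version not given in the sources used here), bcl2fastq 2.20.0.422 and hg38 stand in the submitters' processing notes. Use of a control library, removal of duplicates and handling of reads that fit several places are not given in the sources used here. As deposited by the authors, each peak has a fold enrichment (a ratio), a −log10 p-value, a −log10 q-value and a summit offset. The deposited score was not used. Peak values are the authors' own and were used only to rank peaks within a list.

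Each protein-coding gene took the highest −log10 q among peaks with a summit within 1000 bp of a gene end. Ranks within a library became normal scores, tested with limma 3.58.1 in R 4.3.3 (moderated with a trend and robust prior) in 1 fit of all 31 distinct libraries, with Benjamini-Hochberg adjustment over 16937 genes. The fit was also run on simulated normal scores with a known shift in A264C. These had no shared last rank and no difference in depth, so that run does not cover these features. Pileup and background were recovered from the deposited fold and −log10 p-value. The share solved was counted over weak peaks only, where it was 100%, and stronger peaks did not enter it. Values at a lower depth scale the recovered pileup and compute the summit again, so chance peaks of a shallow library are not added. Counts and p-values at a lower depth therefore leave out the spread that shallow sequencing would add.

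The genes and lists were chosen with earlier results of these data known. Named were, per family, the genes of highest and lowest median WT rank, per comparison the 3 widest called differences in each direction, genes with no peak in WT or in any library, and the 3 highest in WT of each comparison list; others are said to be chosen after their values were seen. Sequences come from the RefSeq promoter table of GRCh38.p14. Alternatives covered ranking by fold, windows of 500 and 5000 bp, a minimum −log10 q of 5, no filter on genes, common depth, a replicate block, 1 value per locus, 5000 strongest peaks, the same number of ranked genes and leaving out each replicate.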

Additional observations from a re-analysis of the deposited data

How the results depend on the processing

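The counts of histone genes called were recomputed under each alternative. With a minimum −log10 q of 5 they were 12 for WT against Empty (8 nearer the top and 4 further), 12 for rep217A (7 and 5), 10 for G244E (2 and 8), 6 for K243A, 4 for E260A, 4 for Y253A, 3 for N278D and 3 for rep263A. That filter turned the sign of WT against Empty at H1-2 (0.177), H1-4 (0.221), H2AC15 and H2BC15 (0.195) and H3C1 and H4C1 (0.536), and a window of 5000 bp did so at H3C8 (0.0034); the cause was not tested. At the depth of the shallowest library the counts were 16 for rep217A, 9 for G244E, 7 for K243A, 3 for N278D, 2 for E260A and 2 for Y253A. For G244E, ranking by fold gave 6, a window of 500 bp 0 and the same number of ranked genes 1, which also gave 1 for N278D; the cause was not tested. Leaving out 1 library (where 1 is left in a group, it is assumed to vary like the other groups) gave 20 to 31 for WT against Empty, 3 to 6 for rep217A, 0 to 4 for G244E and 0 in the other 7 comparisons.

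The median rank in WT was 10687 with a window of 5000 bp, 10134 ranked by fold and 10111 with 1 value per locus, and 9553.8 to 9800.5 without 1 library. The mean number of the 53 genes at a strongest peak in WT, 3, became 0.667 with the 5000 strongest peaks and 1.67 when ranked by fold or with 1 value per locus. In Empty, 16 became 13, 22 and 10 under these settings and 19 with a window of 5000 bp. Leaving out 1 library gave 2.5 to 3.5 in WT and 14.5 to 17 in Empty.

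Same-numbered replicates of different groups had a median r of 0.0011 in their deviations, from -0.048 to 0.136. Differently numbered ones had -0.00078, from -0.094 to 0.072. Such medians over all genes cannot exclude pairing or a shared batch, and the labels give none, so the numbers were not used as pairs. With a replicate block the counts were 25 for WT against Empty, all shared with the 25, 10 for rep217A (8 nearer and 2 further, 7 shared), 2 for G244E and 0 in the other 7 comparisons. Depth limits Empty most, where a histone peak rested on 1 to 13 reads.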
